A study of Homo sapiens with 32 samples.

Results

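The antiandrogen bicalutamide was added to the androgen dihydrotestosterone (DHT) in LNCaP cells, a human prostate cancer cell line, and the start sites of transcription were compared with those of cells given DHT alone. All libraries of DHT with bicalutamide, DHT alone and ethanol in this line at 6 h and 24 h were taken by their labels, which gave 6 of the 32 libraries of the series. The series used cap analysis of gene expression (CAGE), which traps capped RNAs and reads their first bases, so that a tag reports a transcription start. It covers LNCaP and a second prostate cancer line, BicR, under DHT, bicalutamide, both or vehicle, and a time course of LNCaP under the synthetic androgen R1881. The compared LNCaP cells received DHT at 10 nM with bicalutamide at 1 µM, DHT at 10 nM alone, or ethanol as the vehicle. In all groups the cells had been kept beforehand in medium free of phenol red, with serum stripped by charcoal and dextran. A library of bicalutamide alone at 1 µM at each hour served as a further baseline. Each treatment had 1 library per hour, so the 6 h and 24 h libraries stood in for replicates, and the labels do not say whether they came from separate cultures. The p-values therefore measure only the spread between libraries of different hours, estimated over the 18 libraries of both lines together. An effect that differs between the hours counts as error in them.

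DHT is the most potent natural ligand of the androgen receptor, a nuclear receptor that binds DNA after taking up its hormone and changes the rate at which genes are transcribed. Bicalutamide occupies the same ligand pocket without the hormone's activity, and is used against prostate cancer for that reason. LNCaP cells depend on androgen and carry a receptor with a mutated ligand pocket that some other steroids and antiandrogens can activate. Textbook targets of the receptor in these cells include KLK3, which encodes prostate-specific antigen, and TMPRSS2, a membrane serine protease. The deposited table pairs no site with a gene, and the gene table used here belongs to another build, so start sites are given by their hg19 position and strand and no sequence is shown.

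The 6 libraries held 5313088 to 7753336 tags over 13294 start sites. A site's level is given as RPM, the deposited tag count scaled to a common library total, and log2 ratios within an hour were taken after adding 0.5 RPM. A count of 3 tags, the limit that a site with 0 tags allows, corresponded to 0.326 to 0.471 RPM. Over all sites the correlation of log2 levels was 0.983 between DHT with bicalutamide and DHT alone at 6 h, and 0.991 at 24 h, as a description across sites of the same table. At 221 sites that were under 1 RPM in at least 15 of the table's 18 libraries, DHT with bicalutamide at 6 h summed to 170 RPM, while the other compared libraries summed to 8.59 to 12.6 RPM. Bicalutamide alone at 6 h summed to 601 RPM at these sites, and BicR cells given both agents at 6 h to 7670 RPM. That BicR library correlated with the other BicR libraries at only 0.821 to 0.866 over all sites. Each site of the table had reached at least 10 RPM in some library. The choice of the 221 sites thus itself leaves high values to a few libraries, and the sums describe which these were. In bulk RNA, fewer cells that use a site and less RNA per cell cannot be told apart.

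No single start site passed the test of DHT with bicalutamide against DHT, and most sites differed little between them within an hour. Of 13294 sites, 0 changed between DHT with bicalutamide and DHT (0% of those tested, edgeR's quasi-likelihood test with Benjamini-Hochberg adjustment). At an unadjusted p under 0.05 there were 238 sites (1.79%), of which 127 were lower with bicalutamide, and DESeq2 also called 0. Within an hour, 145 sites were at least 2-fold higher and 35 at least 2-fold lower with bicalutamide at 6 h, against 12 higher and 41 lower at 24 h. The 6 h library with both agents is the one with 170 RPM at the near-empty sites, and its part in the 145 was not tested. The standard deviation of the log2 ratio over all sites was 0.322 at 6 h and 0.236 at 24 h. No site was 2-fold lower at both hours, 5 were at least 1.5-fold lower at both, and 0 were 1.5-fold higher at both.

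Among sites with a mean of at least 10 RPM and 1 direction at both hours, the smallest p on the higher side lay on chromosome 5 at position 116051915 of the plus strand. It had 31.4 RPM with DHT and bicalutamide at 6 h and 23.0 RPM at 24 h, against 13.7 and 16.9 RPM with DHT and 16.5 and 20.1 RPM with ethanol. Both bicalutamide libraries lay above all 4 others, with a fitted log2 difference from DHT of 0.86 ± 0.204 (SE, adjusted p = 1.0 in edgeR's test). On the lower side, chromosome 19 at position 35759432 of the plus strand had 8.31 and 7.18 RPM with both agents, against 13.3 and 12.0 RPM with DHT and 13.8 and 12.8 RPM with ethanol. Here DHT and ethanol overlapped and the libraries with both agents lay below them, by a fitted log2 difference from DHT of -0.68 ± 0.185 (SE, adjusted p = 1.0 in edgeR's test). Chromosome 2 at position 219188021 of the plus strand had 19.1 and 20.6 RPM with both agents, 27.3 and 27.7 RPM with DHT, and 22.7 and 22.0 RPM with ethanol. At that site the libraries with both agents and the ethanol libraries all lay below the DHT libraries.

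DHT alone changed 15 sites against ethanol, 14 higher and 1 lower (0.113% of those tested), where 733 had p under 0.05 without adjustment and DESeq2's count was 51. Leaving out any 1 of the 4 libraries of DHT and ethanol left 0 to 2 calls, and a fit to the LNCaP libraries only gave 133. At 13 of the 14 sites raised by DHT, the level with both agents lay closer to ethanol than the level with DHT did, at 6 h and again at 24 h. The 14 sites were called for high levels in the same DHT libraries, which favours lower values with both agents, so this count and the shares blocked below are descriptions and not tests. The fitted log2 difference of both agents from DHT at the 14 sites had a median of -0.73, with all adjusted p-values at 1.0 in edgeR's test.

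The most heavily used of these sites lay on chromosome 19 at position 51358170 of the plus strand. It had 1670 RPM with DHT and bicalutamide, 1500 RPM with DHT and 434 RPM with ethanol at 6 h. At 24 h it had 1310 RPM with both agents, 2190 RPM with DHT and 357 RPM with ethanol. The DHT effect was thus not reduced at 6 h and was reduced at 24 h, when the tag ratio of both agents to DHT was 0.596 (95% exact binomial interval 0.582 to 0.611, counting error only). Its level with both agents stayed above ethanol by a log2 difference of 1.99 ± 0.205 (SE, adjusted p = 0.00588 in edgeR's test). It was the 1 site called between both agents and ethanol (0.00752% of those tested), where 828 had p under 0.05 without adjustment and DESeq2's count was 17. Against bicalutamide alone, at 467 RPM at 6 h and 450 RPM at 24 h, it was also the 1 site called (0.00752% of those tested, adjusted p = 0.0235 in edgeR's test), where 449 had p under 0.05 without adjustment and DESeq2's count was 11. Without either ethanol library, or without the 6 h library of both agents, 0 sites were called against ethanol, and 7 were called without the 24 h library of both agents. Against bicalutamide alone the count was 0 without either of its libraries or the 6 h library of both agents, and 4 without the 24 h library of both agents.

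Among the called rises with a mean of at least 10 RPM, the largest by fold lay on chromosome 8 at position 80993064 of the minus strand. It had 32.0 RPM with both agents, 41.3 RPM with DHT and 5.19 RPM with ethanol at 6 h. At 24 h it had 15.3 RPM with both agents, 40.8 RPM with DHT and 3.41 RPM with ethanol. The share of the DHT effect blocked was 25.7% at 6 h and 68.3% at 24 h, and both libraries with bicalutamide lay between the DHT and ethanol libraries. The 1 exception at 24 h among the 14 rises, a minus-strand site on chromosome 14, had 438 and 409 RPM with both agents, 462 and 404 RPM with DHT, and 270 and 247 RPM with ethanol. Bicalutamide alone had 421 and 439 RPM there, so that only the ethanol libraries were low. The 1 called fall showed the mirror image. On chromosome 17 at position 41152046 of the plus strand it had 8.16 and 9.39 RPM with both agents, 6.73 and 8.29 RPM with DHT, 6.43 and 8.75 RPM with bicalutamide alone, and 22.2 and 18.5 RPM with ethanol. The ethanol libraries stood above all others at this site.

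The extent of the block was followed at the 27 sites that DHT raised at least 2-fold over ethanol at both hours with at least 10 RPM in the DHT library. The median level at 6 h was 33.4 RPM with both agents, 43.9 RPM with DHT and 8.90 RPM with ethanol. At 24 h it was 15.3 RPM with both agents, 34.4 RPM with DHT and 8.85 RPM with ethanol. Levels with both agents thus stayed near those with DHT at 6 h and lay between DHT and ethanol at 24 h.

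**Figure D1:**
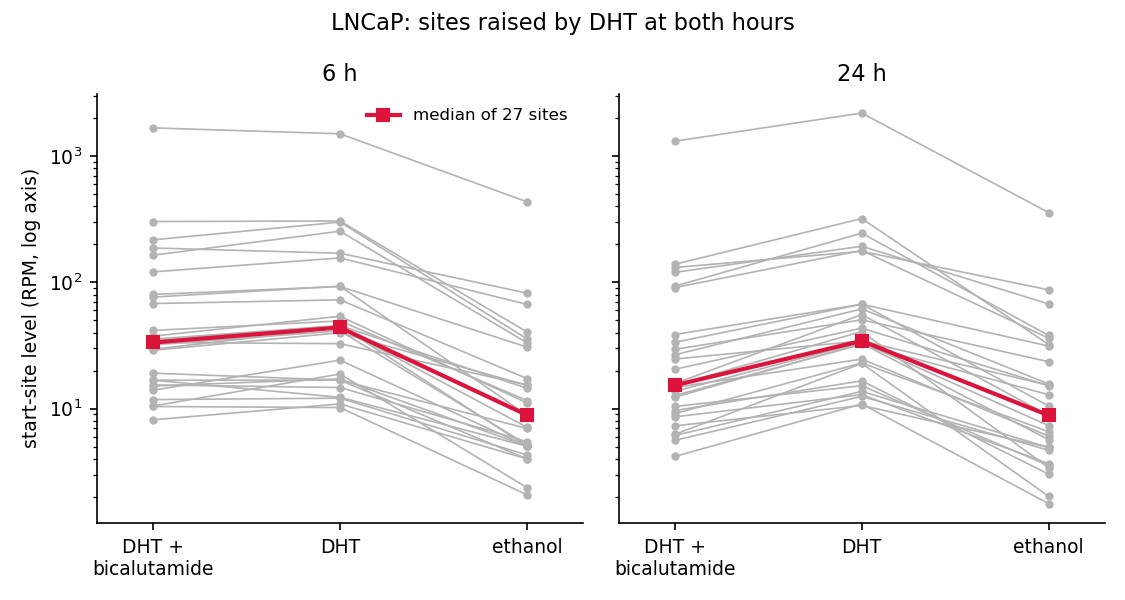
Start-site levels in RPM (log axis) of the 27 LNCaP sites raised at least 2-fold by DHT at both hours, at 6 h (left) and 24 h (right). Each grey line is a site across DHT with bicalutamide, DHT and ethanol, with 1 library per point, and the red squares are medians. The median with bicalutamide was 33.4 RPM at 6 h and 15.3 RPM at 24 h.

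The share blocked was the level with DHT minus that with both agents, as a percentage of the level with DHT minus that with ethanol, in RPM. It had a median of 20.2% at 6 h (quartiles -0.69 to 38.7%) and 73.3% at 24 h (quartiles 56.0 to 79.6%). At 6 h, 7 of the 27 sites had a share below 0, where the level with both agents was above that with DHT, and 2 had a share over 50%. At 24 h, 0 sites were below 0 and 24 were over 50%. The share was higher at 24 h than at 6 h at 27 of 27 sites. On the log2 scale the medians were 11.6% at 6 h and 52.0% at 24 h. Each hour had 1 library per treatment, so the difference between the hours was not tested. The higher sum over the near-empty sites falls in the 6 h library with both agents, and its part in the smaller share at 6 h was not tested.

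**Figure D2:**
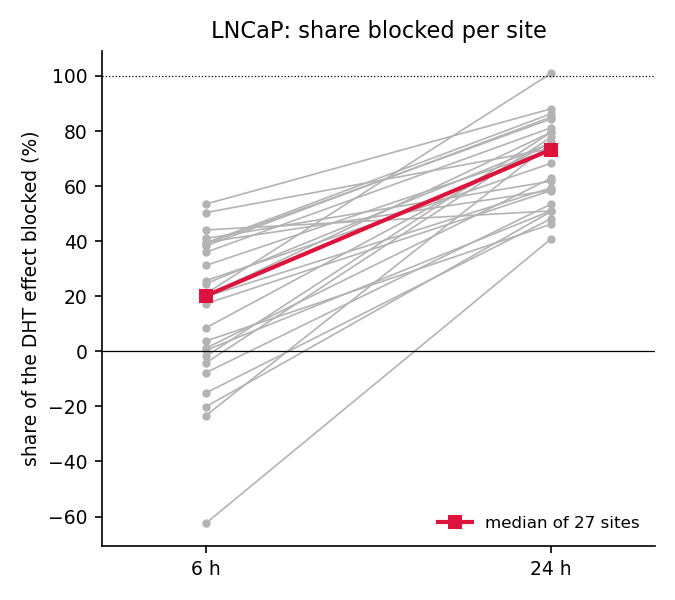
Share of the DHT effect blocked by bicalutamide (percent, y axis) at 6 h and 24 h for the 27 sites. Grey lines join the values of a site and red squares are medians. All 27 lines climb, and the shares ran from -62.4 to 53.5% at 6 h and from 40.9 to 101% at 24 h.

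The shares blocked were spread widely over the 27 sites, but with 1 library per treatment and hour, differences between sites were not tested. At 6 h the lowest share, -62.4%, and the second highest, 50.4%, belonged to sites of the same neighbourhood, a stretch of 54465 bp on chromosome 19 from 51358170 to 51412635. This stretch held 7 of the 27 sites, 5 on the plus and 2 on the minus strand, and 4 of them were called for DHT against ethanol. Their shares had a median of 1.15% at 6 h and 58.5% at 24 h. A second neighbourhood, on chromosome 8 from 23537636 to 23540447, held 3 minus-strand sites, with shares of 19.9 to 41.0% at 6 h and 59.4 to 75.7% at 24 h. The highest share at 24 h, 101%, belonged to a minus-strand site on chromosome 20 with 12.7 RPM with both agents, 32.3 RPM with DHT and 12.9 RPM with ethanol. The same site had 41.6 RPM with both agents, 49.5 RPM with DHT and 11.6 RPM with ethanol at 6 h, a share of 21.0%.

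Of the 27 sites, 20 were lower with both agents than with DHT at 6 h, when 60.2% of all sites were, and the median log2 ratio was -0.25. At 24 h, 27 were lower, against 49.4% of all sites, with a median log2 ratio of -1.07. Since the choice favoured high DHT values, these counts are a description. In the fit over both hours, where the same holds, all 27 had a negative difference (50.1% of all sites, median log2 -0.58) and 0 were called. Against ethanol, 27 sites were higher with both agents at 6 h (35.6% of all sites) and 26 at 24 h (39.9% of all sites), with median log2 ratios of 1.71 and 0.86. Over the 27 sites together, levels summed to 3293 RPM with both agents, 3454 RPM with DHT and 879 RPM with ethanol at 6 h, and to 2205 RPM with both agents, 3986 RPM with DHT and 809 RPM with ethanol at 24 h. The site on chromosome 19 at position 51358170 weighs heavily in these sums. In the same order it held 1670, 1500 and 434 RPM at 6 h and 1310, 2190 and 357 RPM at 24 h.

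Bicalutamide alone gave a baseline that shares no library with the comparison of DHT and ethanol. At the 27 sites the ratio of bicalutamide alone to ethanol had a median log2 of 0.10 at 6 h and 0.00 at 24 h. The effect of DHT in the presence of bicalutamide, measured against bicalutamide alone, had a median log2 of 1.56 at 6 h and 1.04 at 24 h. All 27 sites were above 0 at each hour, against 36.8% of all sites at 6 h and 50.9% at 24 h. Without bicalutamide the DHT effect had a median log2 of 1.94 at both hours, a value that the choice of the 27 sites raises, while the effect with bicalutamide was read outside the choice. A smaller effect with bicalutamide was therefore favoured by the choice, and the counts that follow are descriptions. The DHT effect was smaller with bicalutamide than without it at 21 of 27 sites at 6 h (55.2% of all sites) and at 27 of 27 at 24 h (40.6% of all sites). With bicalutamide present it was smaller at 24 h than at 6 h at 24 of 27 sites (36.8% of all sites). Without bicalutamide it was smaller at 24 h at 14 of 27 (50.3% of all sites), and the counts were not tested against each other. In the fit, the difference between the effects was below 0 at all 27 sites, a sign that the choice also favours (49.5% of all sites, median log2 -0.63). Over all 13294 sites this difference was called at 0 by edgeR's quasi-likelihood test, and DESeq2 called 0. Without adjustment, 156 sites had p under 0.05.

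**Figure D3:**
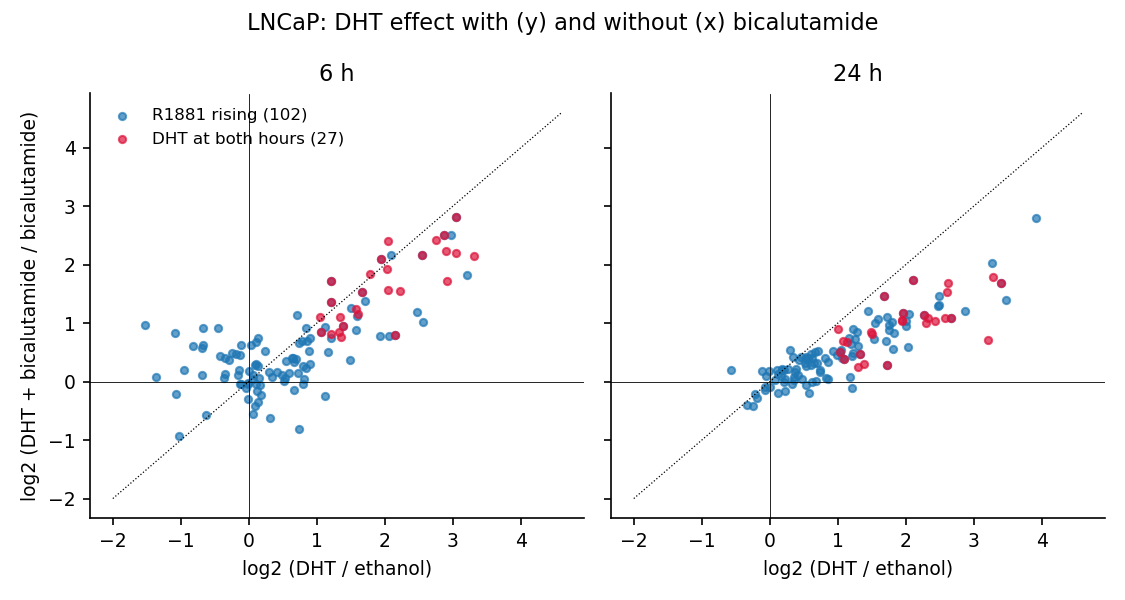
Log2 ratio of DHT with bicalutamide to bicalutamide alone (y axis) against the log2 ratio of DHT to ethanol (x axis) at 6 h and 24 h, 1 point per site. Red points are the 27 sites raised by DHT at both hours and blue points the 102 sites raised by R1881, and the dotted line marks equal effects. At 24 h all 27 red points lie below the line, which their choice on the x-axis ratio favours.

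The R1881 time course supplied a list from libraries that the bicalutamide comparison does not use. It has 2 numbered replicates at each time, at 1 nM per the sample labels, although the protocol text shared by all samples gives 10 nM. At 48 h against 0 h, 302 of 15999 clusters changed (1.89%), 223 higher and 79 lower, and 1366 changed with the replicate number as a block. Leaving out any 1 of the 4 libraries at 0 h and 48 h left 24 to 70. By name, 102 of the rising and 56 of the falling clusters were also in the LNCaP and BicR table.

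At the 102 rising sites the median log2 ratio of both agents to DHT was -0.10 at 6 h, when 62 sites were lower, a share close to the 60.2% of all sites. At 24 h it was -0.37 and 92 sites were lower, against 49.4% of all sites. Against ethanol the libraries with both agents had medians of 0.28 at 6 h and 0.33 at 24 h. The DHT effect itself had a median log2 of 0.38 at 6 h and 0.74 at 24 h. In the presence of bicalutamide, against bicalutamide alone, it had a median of 0.37 at 6 h and 0.40 at 24 h. The DHT effect was smaller with bicalutamide at 61 of 102 sites at 6 h, a share near the 55.2% of all sites, and at 91 of 102 at 24 h, against 40.6% of all sites. In the fit over both hours 86 of the 102 had a negative difference between both agents and DHT (50.1% of all sites). An unadjusted p under 0.05 was found at 8 of the 102, all of them lower (1.79% of all sites, either way), and 0 were called.

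The 56 falling sites were shifted in the opposite direction at 24 h. The median log2 ratio of both agents to DHT was 0.02 at 6 h, with 32 sites higher (39.6% of all sites), and 0.28 at 24 h, with 48 sites higher (49.4% of all sites). DHT against ethanol had a median log2 of -0.18 at 6 h and -0.56 at 24 h at these sites. Against ethanol the libraries with both agents had medians of -0.17 at 6 h and -0.34 at 24 h. At 24 h the median with both agents thus lay between that with DHT and no change from ethanol, for the rising and the falling list. Averaged over both hours, the ratio of both agents to DHT had a median log2 of -0.235 for the rising list and 0.148 for the falling list. Lists called under the replicate block had medians of -0.127 for rising and 0.0365 for falling sites, and lists called at 72 h of R1881 had -0.192 and 0.0569.

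**Figure D4:**
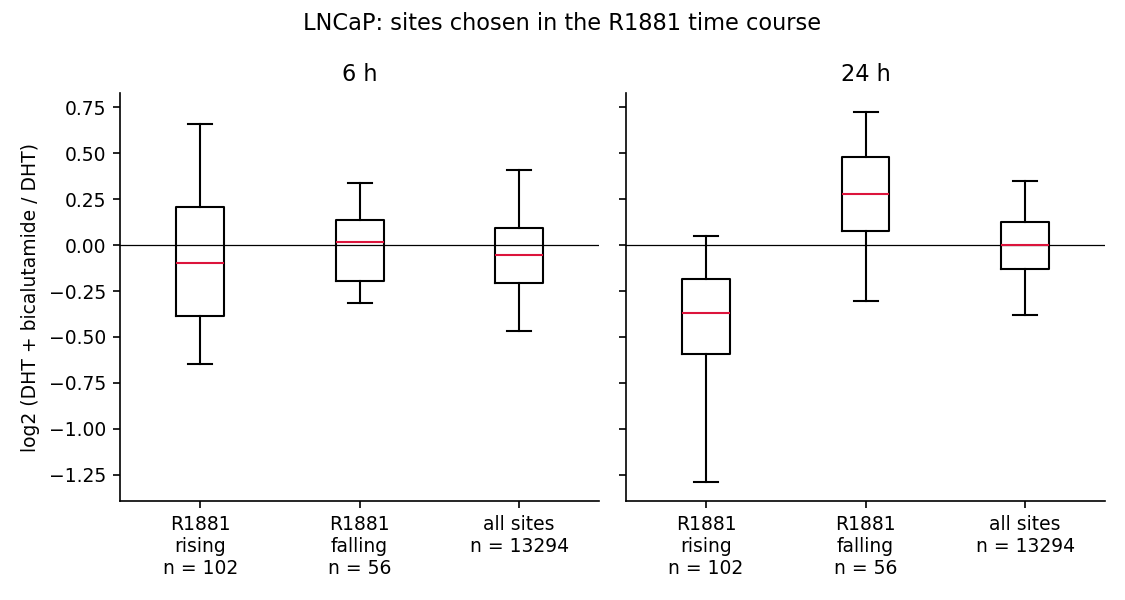
Log2 ratio of DHT with bicalutamide to DHT at 6 h (left) and 24 h (right) for sites called as rising (102) or falling (56) at 48 h of R1881 and for all 13294 sites. Boxes are quartiles, red lines medians, and whiskers the 5th and 95th percentiles over sites. At 24 h the medians were -0.37 for rising sites, 0.28 for falling sites and 0.0 for all sites.

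The largest R1881 rise among sites with a mean of at least 10 RPM lay on chromosome 11 at position 134095354 of the minus strand (log2 8.67 at 48 h, adjusted p = 0.00168 in edgeR's test). It had 14 RPM with DHT and bicalutamide, 24.2 RPM with DHT and 5.04 RPM with ethanol at 6 h. At 24 h it had 5.61 RPM with both agents, 12.5 RPM with DHT and 4.68 RPM with ethanol. Among the 27 sites raised by DHT it had the highest share blocked at 6 h, 53.5%, and its share at 24 h was 88.1%. The most heavily used of the 6 largest R1881 rises, on chromosome 21 at position 42880084 of the minus strand (log2 4.38 at 48 h of R1881, adjusted p = 0.00296 in edgeR's test), had 217 RPM with both agents, 300 RPM with DHT and 35.7 RPM with ethanol at 6 h. Its 24 h levels were 93.3 RPM with both agents, 245 RPM with DHT and 38.0 RPM with ethanol. Both agents together gave levels between those of DHT and ethanol at each hour, with shares of 31.2% at 6 h and 73.3% at 24 h. Not all of the 6 followed this order at 6 h. A plus-strand site on chromosome 19 (log2 4.62 at 48 h of R1881) had 20.9 RPM with both agents, 14.1 RPM with DHT and 15.3 RPM with ethanol at 6 h, so that DHT had not raised it and both agents lay above DHT. At 24 h that site had 18.0 RPM with both agents, 25.1 RPM with DHT and 17.2 RPM with ethanol.

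Among sites of that mean level that R1881 lowered, chromosome 10 at position 54789868 of the minus strand fell most (log2 -8.98 at 48 h, adjusted p = 0.00835 in edgeR's test). It had 36.2 RPM with both agents, 34.9 RPM with DHT and 61.5 RPM with ethanol at 6 h. The 24 h levels were 31.6 RPM with both agents, 13.9 RPM with DHT and 57.8 RPM with ethanol. The counting interval of the ratio of both agents to DHT included 1 at 6 h (ratio 1.04, 0.874 to 1.23) and lay above it at 24 h (ratio 2.28, 1.81 to 2.88). The 27 sites raised by DHT all lay inside clusters of the R1881 table. Of those 27 clusters 12 rose and 0 fell at 48 h (1.89% of clusters tested changed either way), and the median log2 change was 2.37, with a range from -0.71 to 8.67.

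Sites were also chosen at 1 hour and read at the other, so that the choice did not touch the libraries read. The 80 sites at least 2-fold higher with DHT at 6 h had a median log2 ratio of both agents to DHT of -0.41 at 24 h, and 71 of them were lower (49.4% of all sites). The median was -0.224 with a 1.5-fold choice and -0.985 with a 3-fold choice. The 164 sites higher with DHT at 24 h had a median of 0.15 at 6 h, where 62 were lower, a smaller share than the 60.2% of all sites. That median was 0.0183 with a 1.5-fold choice and 0.0739 with a minimum of 5 RPM. DHT itself had not raised most of the 164 sites at 6 h, when 65 were higher than with ethanol (39.3% of all sites). Their median log2 ratio to ethanol at 6 h was -0.29 with DHT and 0.01 with both agents. Most of the 164 sites, 137 of them, met the choice at 24 h but not at 6 h, where DHT was under 2-fold over ethanol or under 10 RPM. Their DHT effect at 6 h had a median log2 of -0.38, a value that this choice holds down. Bicalutamide alone was also below ethanol at 6 h at 117 of the 137 sites (56.1% of all sites), with a median log2 of -0.41. At 24 h the same 137 sites, read in libraries outside the choice, had a DHT effect in the presence of bicalutamide of median log2 0.71, with 133 above 0 (50.9% of all sites), against 1.31 without it. The last value is raised by the choice itself.

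Sites lowered by DHT were fewer at 6 h. Of the 89 sites at least 2-fold lower at 24 h, 81 were also lower with both agents than with bicalutamide alone at 24 h (47.9% of all sites), with a median log2 of -0.44. Their ratio of both agents to DHT at 6 h had a median log2 of -0.003, and 0.0497 with TMM-scaled values. Where DHT had lowered a site at least 2-fold at 24 h and in the same direction at 6 h, the share blocked at 24 h had a median of 33.0% (quartiles 23.1 to 42.2%, 70 sites). For the matching set of raised sites it was 60.0% (quartiles 49.5 to 73.6%, 65 sites). The sets differ in level and number, and their difference was not tested. Bicalutamide alone was below ethanol at 24 h at 81 of the 89 lowered sites (62.3% of all sites). It was above ethanol at 131 of the 164 raised sites (36.4% of all sites). The choice on the ethanol libraries favours both counts, and the shares of these sets were not read against bicalutamide alone. Only 4 sites were lower at both hours, with median shares of 22.9% at 6 h and 13.9% at 24 h, but 81.0% and 56.4% with bicalutamide alone as the baseline in place of ethanol.

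BicR cells given the same treatments were set beside LNCaP. At the 27 sites the median log2 ratio of both agents to DHT at 24 h was -1.07 in LNCaP, with 27 lower, and -0.11 in BicR, with 20 lower. These sites were chosen for high values in the LNCaP DHT libraries, which favours a low ratio in LNCaP and not in BicR. At the 102 sites raised by R1881, a list not chosen on these libraries, it was -0.37 in LNCaP, with 92 lower, and -0.03 in BicR, with 53 lower. Over all 13294 sites at 24 h, 6565 were lower in LNCaP and 6582 in BicR, with a median of 0.0 in each line. At 6 h the order was the other way, with medians at the 27 sites of -0.25 in LNCaP and -0.88 in BicR, against -0.06 and -0.08 over all sites. The BicR library with both agents at 6 h is the one with 7670 RPM at the near-empty sites, and its part in the 6 h value was not tested. DHT against ethanol in BicR had median log2 ratios of 2.43 at 6 h and 2.61 at 24 h at the 27 sites. With bicalutamide alone the median level in LNCaP was 12.5 RPM at 6 h and 7.41 RPM at 24 h, against 8.90 and 8.85 RPM with ethanol. In BicR it was 35.7 and 27.1 RPM with bicalutamide alone, against 8.19 and 10.3 RPM with ethanol.

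**Figure D5:**
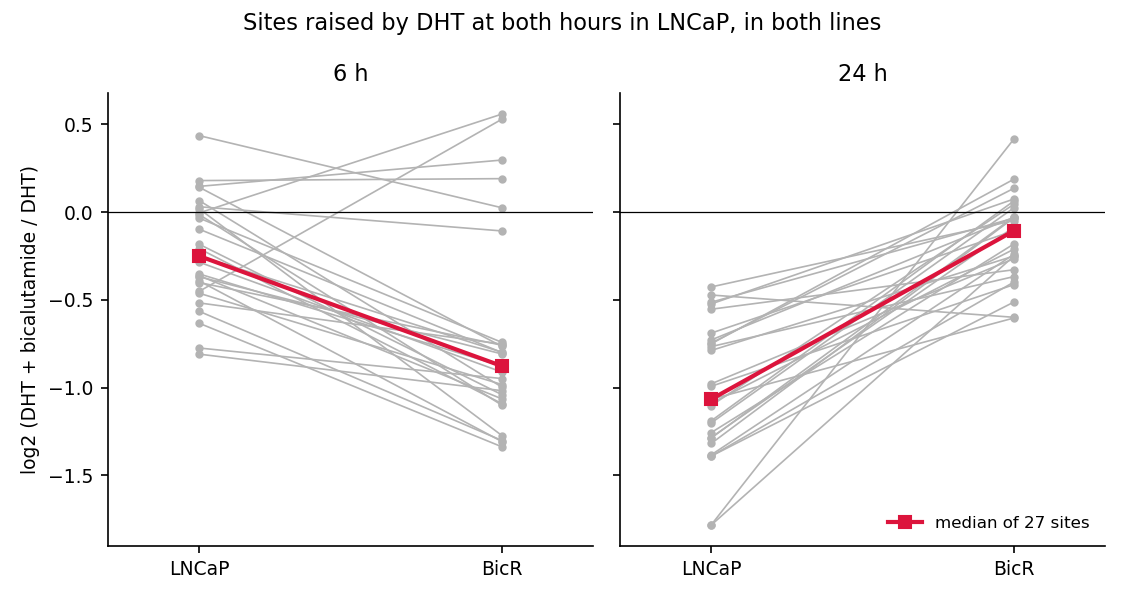
Log2 ratio of DHT with bicalutamide to DHT in LNCaP and BicR cells at 6 h (left) and 24 h (right) for the 27 sites raised by DHT at both hours in LNCaP. Grey lines join the values of a site in the lines, and red squares are medians. The 24 h median was -1.07 for LNCaP and -0.11 for BicR, and the 6 h median -0.25 for LNCaP and -0.88 for BicR. The choice of sites on the LNCaP DHT libraries favours low ratios in LNCaP only.

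The difference between the lines, taken as BicR minus LNCaP over both hours, was called at 0 of 13294 sites by edgeR's quasi-likelihood test and at 0 by DESeq2, with 428 sites at an unadjusted p under 0.05. None of the 27 sites had an unadjusted p under 0.05 in that test, and their median difference was a log2 of 0.21. Without the BicR library of both agents at 24 h, the count of 0 called sites did not hold. The BicR cells with both agents were then represented only by the 6 h library with 7670 RPM at the near-empty sites. A difference between the lines at 24 h alone, with 1 library each, was not tested.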

How the data were processed

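CAGE libraries were made from total RNA by cap trapping and read on a HeliScope sequencer, per the labels' protocols. The deposited table of 13294 sites in 18 libraries gives tag counts, which are raw per the file headers, and RPM values, which are the deposited counts scaled by 1 factor per library. Genome build hg19 comes from the submitters' processing notes; the aligner and site caller are not given in the sources used here. Each site had reached at least 10 RPM in some library.

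Counts were tested with edgeR 4.0.16 in R 4.3.3 (TMM, quasi-likelihood F test, filterByExpr with a minimum count of 10, Benjamini-Hochberg over all sites, threshold 0.05). The fit over 18 libraries had a coefficient per line and treatment and a term per line for 24 h against 6 h, and was tested on simulated data. DESeq2 1.42.0 was an alternative. The R1881 table (14 libraries) had 1 coefficient for each time. Its main fit did not pair the libraries by replicate number, and a fit with that number as a block was an alternative. Deviations of same-numbered replicates correlated over 0.1 in 21 of 21 pairs of times (0.139 to 0.54, median 0.309). The main fit and its lists therefore leave out a pairing that the libraries show. Log2 ratios per hour used RPM plus 0.5. Intervals of tag ratios are exact binomial at 95% and, like the 3-tag limit, cover counting error only.

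The rule for named sites took all sites called for DHT, the 6 smallest p-values each way for both agents against DHT, and the largest R1881 changes. As no gene names could be paired, at most 2 sites each way per comparison are given by position, picked after their values were seen. Members and lists were chosen with earlier results of these data known. The baseline of bicalutamide alone, the difference between DHT effects and the fits without the BicR library of both agents at 6 h were added after seeing the data. The gene lists and cell type markers could not be used, so the labelled cell line was not checked against markers.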

Additional observations from a re-analysis of the deposited data

Results flagged for a closer look

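At the 221 near-empty sites, which are under 1 RPM in at least 15 of 18 libraries and enter no comparison on their own, the LNCaP library of DHT with bicalutamide at 6 h summed to 170 RPM, above the 9.19 RPM of the ethanol library at the same hour. It had 0 tags at 19 of all sites, where the ethanol library had 0 tags at 199. Bicalutamide alone at 6 h had 601 RPM and 4 sites with 0 tags, and the BicR library of both agents at 6 h had 7670 RPM and 2 sites with 0 tags. Each site of the table had reached at least 10 RPM in some library. High sums in a few libraries therefore follow from how the 221 sites were chosen, and only which libraries hold them is described.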

How the results depend on the processing

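With 1 library per treatment and hour, counts of called sites moved with which libraries entered the fit. Between DHT with bicalutamide and DHT, DESeq2 called 0 sites and was run on the main design only. In edgeR the count was 0 under all alternatives except the fit to LNCaP libraries only, with 1 call (chromosome 6, position 87804823, minus strand). That site had 16.0 RPM in the 6 h library with both agents and 55.8 RPM with bicalutamide alone at 6 h. It had at most 0.217 RPM in the other LNCaP libraries of DHT and ethanol. Against ethanol, both agents gave 1 call, 4 with the deposited library totals, 17 with DESeq2, 26 with LNCaP libraries only, 13 with the 6 compared libraries only, 16 without the BicR library of both agents at 6 h, and 0 to 7 leaving out 1 library; the 0 came without either ethanol library or the 6 h library of both agents and the 7 without their 24 h library. DHT against ethanol gave 15 calls, 51 with DESeq2, 7 with no time term, 133 (104 higher) with LNCaP libraries only, 75 with the 6 libraries, 63 without that BicR library, and 0 to 2 leaving out any 1 library. Both agents against bicalutamide alone gave 1 call, 11 with DESeq2, 0 with no time term, 12 with LNCaP libraries only, 3 without that BicR library, and 0 to 4 leaving out 1 library. The difference between the lines gave 0 to 229 leaving out 1 library. The R1881 comparison gave 302 calls, 1366 with the replicate block (793 higher, 573 lower), and 24 to 70 leaving out 1 library. The cause of these shifts was not tested.

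The share blocked at raised sites at 24 h was 73.3% in RPM and 52.0% on the log2 scale. At the 4 sites lowered at both hours it was 22.9% at 6 h and 13.9% at 24 h, and 81.0% and 56.4% with bicalutamide alone as the baseline. Sites raised at 6 h and read at 24 h had a median log2 of -0.41, -0.224 with a 1.5-fold choice and -0.985 with a 3-fold choice. Sites raised at 24 h and read at 6 h had 0.145, 0.0183 with a 1.5-fold choice, 0.254 with a 3-fold choice and 0.0739 at 5 RPM. Near-zero medians changed sign. Sites lowered at 24 h and read at 6 h had -0.003, but 0.048 with a 3-fold choice, 0.0244 at 20 RPM and 0.0497 with TMM-scaled values. Sites lowered at 6 h and read at 24 h had -0.003, but 0.135 with a 3-fold choice. The medians for the R1881 lists kept their direction under every alternative run. So did the differences between both agents and DHT at 12 sites followed singly. Those 12 were chosen in these libraries for small p-values and 1 direction at both hours, so the choice favoured a kept direction.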
